A study of Homo sapiens with 14 samples.

Results

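The HOX cluster miRNAs are the mature miRNAs whose hairpins lie among the HOX genes, and they were followed here through a chemical and an antibody assay for N7-methylguanosine (m7G), a guanine that carries a methyl group on its ring. They were chosen by name as 8 entries, hsa-miR-10a-5p, hsa-miR-10a-3p, hsa-miR-10b-5p, hsa-miR-10b-3p, hsa-miR-196a-5p, hsa-miR-196b-5p, hsa-miR-196b-3p and hsa-miR-615-3p (the species prefix is left off below), of the 2588 mature miRNAs counted in each assay.

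HOX genes are arranged in clusters and encode transcription factors that give cells their position along the body axis. The miRNAs between them are transcribed within the same clusters. miR-10 and miR-196 are known to act on HOX mRNAs, and miR-196 can direct the cutting of the HOXB8 mRNA, to which it pairs almost completely. A hairpin yields a 5p and a 3p strand. One of them usually is loaded into Argonaute and kept while the other is degraded, and the seed, bases 2 to 8 of the mature strand, leads target recognition.

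All libraries came from total RNA of A549, an established human lung adenocarcinoma cell line, from which the 5′ caps had been removed so that the m7G of mRNA caps would not be detected. In BoRed-seq, RED RNA was reduced with NaBH4 while free m7GTP was present in excess, and acidic conditions then removed the reduced base. A biotin-coupled aldehyde reactive probe was bound to the abasic sites for pulldown on streptavidin beads, and CTRL RNA went through the same steps with NaBH4 that acid had quenched, so it was not reduced. In m7G-RIP-seq, IP RNA was immunoprecipitated with an antibody against m7G and INPUT RNA was taken before that step. There were 2 RED, 2 CTRL, 5 IP and 5 INPUT libraries. RED and CTRL are therefore both pulldowns and differ in the reduction, while INPUT was not pulled down. The labels do not say whether replicates came from separate cultures, so p-values measure the spread between these libraries, which may be technical.

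Library depth set how firmly each value could be read. RED libraries held 242085 and 277498 counts, against 5874405 and 4678102 in CTRL, 7097379 to 14874685 in INPUT and 2854811 to 6452759 in IP. A miRNA at 0 counts could have been present at up to 0.511 to 12.4 CPM (counts scaled to a total of 1000000) in a BoRed-seq library and 0.202 to 1.05 CPM in an m7G-RIP-seq library, the level of 3 counts. These limits, and the counting intervals given below, cover counting error only. The summed CPM of liver (miR-122-5p) was 0 in every library. Blood markers (4 miRNAs) summed to 1.95 CPM at most in INPUT and muscle markers (3 miRNAs) to 6.20 CPM, but in RED they reached 20.7 to 72.1 CPM and 41.3 to 43.2 CPM, against 1.02 to 1.50 CPM and 0.34 to 3.42 CPM in CTRL. In IP blood markers summed to 3.41 CPM at most and muscle markers to 3.59 to 22.2 CPM. The level of 3 counts was 12.4 and 10.8 CPM in the RED libraries, so the RED sums rest on few counts. Of the muscle markers 2 of 3 were at 0 counts in both RED and CTRL. The neuron pair miR-9-5p and miR-124-3p summed to 301 to 492.7 CPM in INPUT, beside 342 to 1000 CPM for 5 epithelial miRNAs. As a sum the neuron list was thus not absent from this epithelial line. However, 1 of the 2 was at 0 counts in CTRL, and in BoRed-seq only miR-9-5p of the pair had enough counts to be tested. Any part of these markers in the results was not tested.

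The mature sequences are shown because the strongest contrasts below lie between miR-196a-5p and miR-10a-5p, and between the near-identical miR-196a-5p and miR-196b-5p. They are the RefSeq sequences for GRCh38.p14, 5′ to 3′, with the seed in capitals.
miR-10a-5p: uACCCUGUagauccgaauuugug
miR-10a-3p: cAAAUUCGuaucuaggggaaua
miR-10b-3p: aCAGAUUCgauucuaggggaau
miR-196a-5p: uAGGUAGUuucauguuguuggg
miR-196b-5p: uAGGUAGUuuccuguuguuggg
miR-196b-3p: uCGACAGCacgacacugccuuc
miR-615-3p: uCCGAGCCugggucucccucuu
A sequence was matched for 7 of the 8 members and miR-10b-5p is named only. The seed AGGUAGU was shared by miR-196a-5p and miR-196b-5p and by no other of the 2370 mature miRNAs whose sequences were searched. miR-196a-5p and miR-196b-5p were identical at 21 of 22 positions and differed by A12C, written from miR-196a-5p to miR-196b-5p with positions counted from 1 at the 5′ end of miR-196a-5p. Both held 8 G in 22 bases (36.4%) with a longest run of 3 G, at the 3′ end. miR-10a-5p held 5 G in 23 bases (21.7%) and no GG. miR-10a-3p and miR-10b-3p each held a run of 4 G, and miR-615-3p a run of 3. Over all 2370 mature miRNAs the median G content was 27.3%, 33.2% held a run of at least 3 G, 11.7% a run of at least 4, and 26.3% no GG.

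The hairpins lie in 4 clusters on GRCh38. MIR10A (chr17:48579838-48579947, minus strand) is within an intron of HOXB3 and 1488 bp from HOXB4. MIR10B (chr2:176150303-176150412, plus strand) is within an intron of HOXD3 and 1138 bp from HOXD4, so both miR-10 hairpins sit beside a HOX4 gene. miR-196a-5p has 2 hairpins. MIR196A1 (chr17:48632490-48632559, minus strand) is within an intron of HOXB7, 6132 bp from HOXB9, and MIR196A2 (chr12:53991738-53991847, plus strand) is within an intron of HOXC6, 1459 bp from HOXC10 and 3048 bp from HOXC9. MIR196B (chr7:27169480-27169563, minus strand) overlaps an annotated exon of HOXA9 on the same strand and lies 1042 bp from HOXA10. MIR615 (chr12:54033950-54034045, plus strand) is within introns of HOXC5 and HOXC4. Reads from the MIR196A1 and MIR196A2 hairpins give the same mature sequence and could not be told apart.

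Before enrichment the members ran from one of the most abundant miRNAs to one with no reads. On the CPM scale, which needs no scaling for length because a read spans the whole mature miRNA, miR-10a-5p stood at 15569 ± 719 CPM in INPUT (SD, n = 5) and ranked 9 among the 1596 miRNAs with at least 1 count. miR-10b-5p followed at 1519 ± 416 CPM (rank 45), miR-615-3p at 399 ± 281 CPM (rank 88) and miR-196a-5p at 272 ± 52.9 CPM (rank 101). The passenger strand miR-10a-3p stood at 33.1 ± 4.88 CPM and miR-196b-5p at 23.8 ± 4.59 CPM, and miR-10b-3p at 1.47 ± 0.80 CPM. In this order only the neighbours miR-615-3p and miR-196a-5p, and miR-10a-3p and miR-196b-5p, overlapped between libraries. miR-196b-3p had 0 counts in all 14 libraries and is not discussed further.

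CTRL libraries gave a similar order, with miR-615-3p lower and miR-196b-5p above miR-10a-3p. There miR-10a-5p was at 4682 ± 105 CPM (SD, n = 2), miR-10b-5p at 519 ± 1.07 CPM, miR-196a-5p at 89.9 ± 3.43 CPM, miR-615-3p at 15.4 ± 1.55 CPM, miR-196b-5p at 13.5 ± 1.22 CPM and miR-10a-3p at 10.6 ± 0.448 CPM. After enrichment miR-196a-5p climbed in rank, from 113 of 1104 miRNAs in CTRL to 33 of 818 in RED, and from 101 in INPUT to 44 of 1327 in IP. The counts come from bulk RNA, in which fewer cells carrying a miRNA and less of it per cell cannot be told apart.

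**Figure D1:**
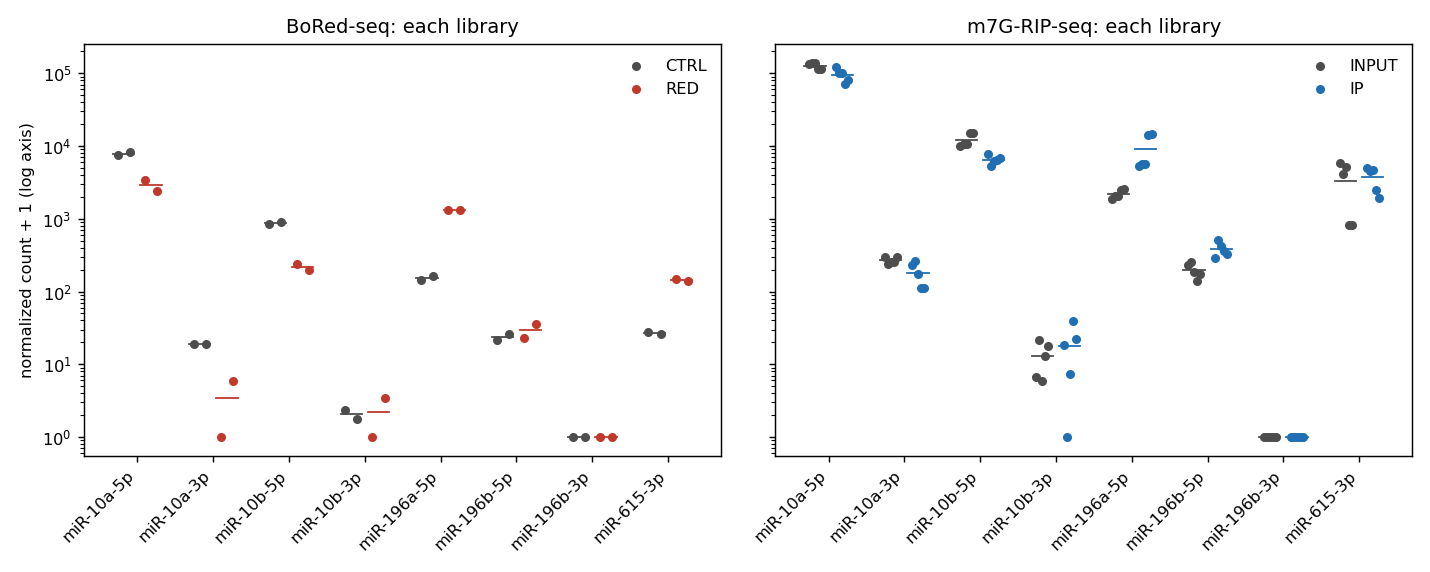
Normalized counts (plus 1, log axis) of the 8 HOX cluster miRNAs in each BoRed-seq library (left) and m7G-RIP-seq library (right), with a line at each group mean. miR-196a-5p lies higher in RED and IP than in CTRL and INPUT without overlap, miR-10b-5p lies lower in both, and miR-196b-3p is at 0 throughout.

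BoRed-seq asked which miRNAs are pulled down when m7G sites are reduced. miR-196a-5p and miR-615-3p rose in RED, miR-10a-5p and miR-10b-5p fell, and miR-10a-3p and miR-196b-5p did not pass the test. miR-10b-3p and miR-196b-3p had too few counts to be fitted. The fit was the DESeq2 Wald test, with Benjamini-Hochberg adjustment over 400 miRNAs, and a miRNA was called at an adjusted p under 0.05. Of all miRNAs tested 32.2% were enriched and 27.2% depleted, so 2 enriched and 2 depleted of 6 fitted members is near the background. The median log2 enrichment was −0.55 over the 6 members and −0.32 over all 453 fitted miRNAs. RED and CTRL libraries did not overlap for 5 of the 6, where 81.5% of all fitted miRNAs did not.

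miR-196a-5p, a regulator of HOXB8, had 142.2 and 160.6 normalized counts (counts divided by the DESeq2 size factor of the library) in CTRL and 1314.7 and 1314.1 in RED. Both RED libraries lay far above both CTRL libraries. The log2 enrichment was 3.12 ± 0.29 (SE), 8.68-fold, with an adjusted p of 3.30e-26. In deposited counts this rested on 514 and 432 in CTRL and 355 and 537 in RED, so RED and CTRL returned similar numbers of miR-196a-5p reads from libraries of very different depth.

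Its sister miR-196b-5p, which differs by A12C, did not pass the test and was thinly counted. It had 20.5 and 24.9 normalized counts in CTRL and 22.2 and 34.3 in RED, and the groups overlapped. The log2 enrichment was 0.34 ± 0.73 (SE) with an adjusted p of 0.714, on only 6 and 14 RED counts. Within a library, miR-196a-5p outnumbered miR-196b-5p by 6.91 and 6.41 in CTRL and by 54.7 and 37.1 in RED. The ratio was thus 6.77-fold higher in RED with no overlap, but 2 libraries against 2 cannot give an exact permutation p below 0.333. Because the 2 sisters differ only by A12C, the split of reads between them is uncertain as well.

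miR-615-3p, from the HOXC5 intron, had 26.8 and 24.9 normalized counts in CTRL and 148.1 and 137.0 in RED. The libraries did not overlap, and the log2 enrichment was 2.46 ± 0.45 (SE), 5.50-fold, with an adjusted p of 1.67e-07. RED held 40 and 56 deposited counts of it.

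The miR-10 strands were lower in RED. miR-10a-5p, the most abundant member, went from 7489.9 and 8274 normalized counts in CTRL to 3426 and 2428 in RED, without overlap. Its log2 enrichment was −1.43 ± 0.29 (SE), 2.70-fold lower, with an adjusted p of 3.81e-06. miR-10b-5p, best known for its link to metastasis, went from 845.2 and 901.7 to 240.7 and 195.8, again without overlap. Its log2 enrichment was −2.01 ± 0.32 (SE), 4.02-fold lower, with an adjusted p of 1.46e-09. The split of reads between miR-10a-5p and miR-10b-5p, which are near identical, is uncertain, and with both summed the log2 enrichment was −1.48 ± 0.30 (SE, adjusted p 2.85e-06).

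The 3p strands of miR-10 were close to the limit of detection in RED. miR-10a-3p had 64 and 48 counts in CTRL and 0 and 2 in RED. Scaled for depth, the ratio of RED to CTRL was 0.166, with a 95% counting interval of 0.0198 to 0.613, and the fitted log2 enrichment of −2.67 ± 1.46 (SE) had an adjusted p of 0.105. It was called depleted by edgeR's quasi-likelihood test (−2.75, adjusted p 0.0162) and by DESeq2 with library totals that leave out miR-21-5p as factors (−3.33, adjusted p 0.0273), and its adjusted p ran from 0.0162 to 0.450 over 9 alternatives. miR-10b-3p had 5 and 2 counts in CTRL and 0 and 1 in RED, a ratio of 1.33 with an interval of 0.0294 to 10.3, so no difference was detectable at this depth.

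The choice of scaling mattered for miR-10a-5p. With factors from library totals the median of all fitted miRNAs moved by 1.08, and the members moved with it. miR-10a-5p was then at −0.34 (adjusted p 0.378) and miR-10b-5p at −0.90 (adjusted p 0.0282). With these factors 2 members were enriched and 1 depleted, beside 175 and 46 of all 391 miRNAs tested. Relative to that shift the values were −1.42 for miR-10a-5p, −1.98 for miR-10b-5p, 3.16 for miR-196a-5p and 2.49 for miR-615-3p. The 4 calls held without any 1 library. A CTRL library moved them most. Without CTRL replicate 1, which left 270 miRNAs past the count filter and their median at 0.09, the log2 enrichments were 2.25 for miR-196a-5p, 1.74 for miR-615-3p, −2.28 for miR-10a-5p and −2.83 for miR-10b-5p, and without CTRL replicate 2 they were 2.61, 1.81, −1.95 and −2.55.

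m7G-RIP-seq put the same question to an antibody in 5 libraries a group. miR-196a-5p and miR-196b-5p rose in IP, miR-10b-5p and miR-10a-5p fell, and miR-10a-3p, miR-10b-3p and miR-615-3p did not pass the test. Of 670 miRNAs tested with DESeq2, 27.3% were enriched and 29.9% depleted, so 2 and 2 of 7 fitted members is again close to the background. The median log2 enrichment was 0.16 over the 7 members and 0.02 over all 670. IP and INPUT libraries did not overlap for 3 of the 7, where 42.4% of all fitted miRNAs did not.

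miR-196a-5p had 1840.1, 2086, 2079, 2446 and 2569.8 normalized counts in INPUT replicates 1 to 5 and 5369, 5675, 5673, 14251 and 14691 in IP. Every IP library was above every INPUT library, and IP replicates 4 and 5 stood apart above the other 3. The log2 enrichment was 2.05 ± 0.34 (SE), 4.14-fold, with an adjusted p of 9.63e-09. It lay at percentile 88.1 of all 670 log2 enrichments, and at percentile 83.7 of the 453 in BoRed-seq.

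miR-196b-5p had 229.4, 255.3, 185.6, 136.7 and 172.2 normalized counts in INPUT and 283.6, 513.1, 417.2, 361.7 and 324.9 in IP. All IP libraries lay above all INPUT libraries, although IP replicate 1 did so narrowly. The log2 enrichment was 0.96 ± 0.25 (SE), 1.94-fold, with an adjusted p of 0.000369. Within a library miR-196a-5p outnumbered miR-196b-5p by 11.4 in INPUT and 21.9 in IP (geometric means), and the ratio was higher in IP in 5 of 5 pairs of the same replicate number. Over libraries the exact permutation test gave p = 0.0952, or 0.159 adjusted over 5 ratios. The smallest p this test allows is 0.00794, so it could have called a difference between the 2 sisters and did not, which does not exclude one. Sign flips of the 5 pairs gave an exact p of 0.0625, the smallest they allow, so they could not call a difference.

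miR-10b-5p had 9956, 10595, 10690.2, 14950.1 and 14935 normalized counts in INPUT and 7676, 5235, 6319.7, 6377 and 6903 in IP. The groups did not overlap. Its log2 enrichment was −0.91 ± 0.19 (SE), 1.88-fold lower, with an adjusted p of 7.51e-06. miR-10a-5p had 132326, 139630, 136872, 112850 and 114850 in INPUT and 120438, 100745, 101577, 71492 and 80491 in IP. It was lower in IP in 5 of 5 same-numbered pairs, but the groups overlapped through IP replicate 1. The log2 enrichment was −0.42 ± 0.18 (SE) with an adjusted p of 0.0369, and edgeR's quasi-likelihood test gave 0.0705. With library totals as factors 2 members were enriched and 1 depleted, beside 232 and 164 of all 670 miRNAs. These factors moved the median of all miRNAs by 0.36, and miR-10a-5p was at −0.07 (adjusted p 0.748), or −0.43 relative to that shift. The call was also lost without any 1 of 6 libraries (INPUT 2 and 3, IP 2 to 5), with log2 enrichments of −0.44 to −0.30 and adjusted p from 0.0531 to 0.151. It held with the replicate number as a block (−0.44, adjusted p 0.00579), with a term for replicates 1 to 3 against 4 and 5 (−0.44, adjusted p 3.50e-05), and in replicates 1 to 3 (−0.36, adjusted p 0.00246) or 4 and 5 alone (−0.67, adjusted p 1.02e-08).

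miR-10a-3p, usually degraded as the passenger strand, had 299.5, 239.5, 252.8, 253.6 and 296.9 normalized counts in INPUT and 226.9, 265.8, 170.7, 111.5 and 109.1 in IP. IP replicates 4 and 5 were the lowest and IP replicate 2 lay within the INPUT range. The log2 enrichment of −0.60 ± 0.29 (SE) had an adjusted p of 0.0626. With the replicate number as a block it was −0.69 with an adjusted p of 0.0353. That would make 3 depleted members, beside 237 of 670 miRNAs depleted under the block. miR-10b-3p had 5.65, 20.3, 4.90, 11.8 and 17.1 in INPUT and 17.1, 0, 6.32, 38.5 and 21.6 in IP, and its log2 enrichment of 0.49 ± 0.85 (SE, adjusted p 0.645) was within the spread.

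miR-615-3p was not called over all 10 libraries, which differed widely. It had 5861, 4116, 5107, 832.2 and 819.3 normalized counts in INPUT and 5062, 4488, 4720.3, 2455 and 1958 in IP. Replicates 1 to 3 were alike in both groups, while in replicates 4 and 5 INPUT was far lower than IP. The pooled log2 enrichment was 0.16 ± 0.54 (SE) with an adjusted p of 0.823.

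**Figure D2:**
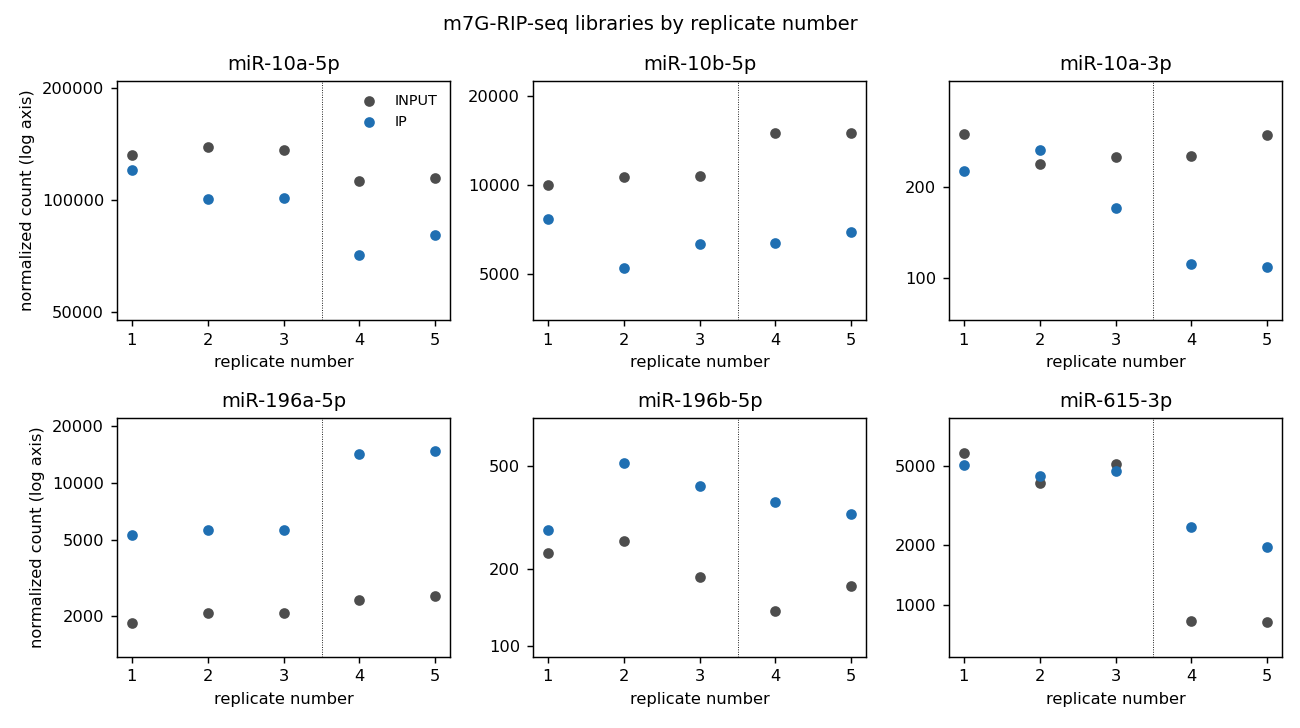
Normalized counts (log axis) of 6 HOX cluster miRNAs in INPUT and IP libraries of m7G-RIP-seq by replicate number, with a dotted line between replicates 3 and 4. miR-196a-5p has its highest IP values in replicates 4 and 5, and miR-615-3p its lowest INPUT values there, 832.2 and 819.3.

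Replicates 1 to 3 and 4 to 5 stood apart, and the labels name no batch. An interaction fit over the 10 libraries asked whether the IP enrichment differed between these sets, as it did for 26.8% of 488 miRNAs at a DESeq2 adjusted p under 0.05. It differed for 3 members. miR-615-3p was at −0.08 in replicates 1 to 3 (adjusted p 0.663) and 1.42 in 4 and 5 (adjusted p 5.37e-14), a difference of 1.50 ± 0.23 (SE, adjusted p 5.59e-09). miR-196a-5p was enriched in both sets, by a log2 of 1.48 and 2.53, and the difference was 1.05 ± 0.15 (SE, adjusted p 4.79e-11). miR-10a-3p was at −0.24 and −1.32, a difference of −1.08 ± 0.38 (SE, adjusted p 0.0247). For miR-10a-5p (−0.34 and −0.58), miR-10b-5p (−0.70 and −1.17) and miR-196b-5p (0.86 and 1.15) the adjusted p of the difference was 0.281, 0.0888 and 0.684.

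The INPUT levels themselves differed between the sets for 34.5% of 475 miRNAs. miR-615-3p fell by 2.61 ± 0.17 on the log2 scale (SE, adjusted p 8.00e-53) in INPUT replicates 4 and 5, and only 2 of the 475 fell further. Its mean level there was 109 CPM against 592 CPM in replicates 1 to 3, while in IP it was 333 CPM and 754 CPM. miR-10b-5p was higher by 0.52 ± 0.15 (SE, adjusted p 0.00228) and miR-196a-5p by 0.32 ± 0.10 (SE, adjusted p 0.00768). miR-10a-5p (−0.26, adjusted p 0.0625), miR-196b-5p (−0.53, adjusted p 0.156) and miR-10a-3p (0.06, adjusted p 0.903) did not pass.

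Set side by side, both assays called miR-196a-5p enriched and miR-10a-5p and miR-10b-5p depleted. Over the 384 miRNAs with an adjusted p in both, 18.2% were enriched in both and 22.7% depleted in both. The size of the enrichment differed between assays for 38% of these 384 miRNAs in a z test on the DESeq2 estimates, and for 4 of the 6 members in both. miR-615-3p differed most, by a log2 of 2.30 ± 0.70 (SE, BoRed-seq minus m7G-RIP-seq, adjusted p 0.00447). miR-196a-5p was 1.07 ± 0.45 higher in BoRed-seq (adjusted p 0.0456). miR-10a-5p was −1.01 ± 0.35 (adjusted p 0.0127) and miR-10b-5p −1.10 ± 0.37 (adjusted p 0.0116) further down in BoRed-seq, and all 4 members thus lay further from 0 there. For miR-10a-3p (−2.07 ± 1.49, adjusted p 0.268) and miR-196b-5p (−0.62 ± 0.78, adjusted p 0.566) a difference was not shown. An interaction term in 1 DESeq2 fit over all 14 libraries called miR-10a-5p and miR-10b-5p, and not miR-196a-5p (0.64, adjusted p 0.354) or miR-615-3p (1.86, adjusted p 0.126). Library totals as factors called only miR-196a-5p and miR-615-3p of the 6. m7G-RIP-seq replicates 4 and 5 alone called miR-10a-5p and miR-615-3p. In that order, the interaction term and these settings called 145 of 426, 172 of 377 and 178 of 390 miRNAs.

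**Figure D3:**
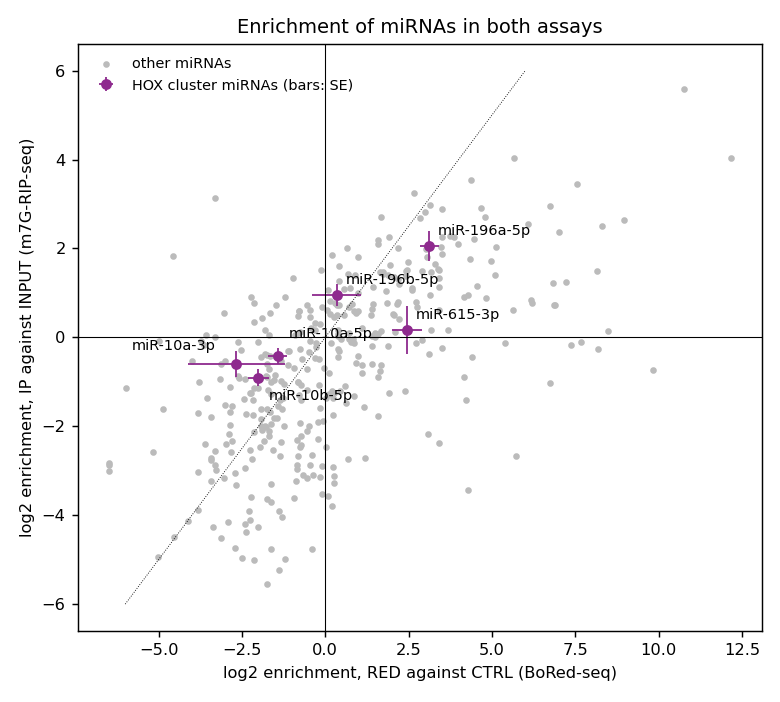
Log2 enrichment in BoRed-seq (RED against CTRL, x axis) and m7G-RIP-seq (IP against INPUT, y axis) for the 384 miRNAs with an adjusted p in both (grey) and the 6 HOX cluster miRNAs among them (purple, bars are SE). The dotted line marks equal values. miR-196a-5p sits at 3.12 and 2.05, miR-10b-5p at −2.01 and −0.91, and miR-615-3p at 2.46 and 0.16.

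A ratio of members within a library needs no scaling factor. miR-196a-5p per miR-10a-5p was 0.0139, 0.0149, 0.0152, 0.0217 and 0.0224 in INPUT and 0.0446, 0.0563, 0.0559, 0.199 and 0.182 in IP. All 5 IP libraries lay above all INPUT libraries, and the geometric mean rose 5.07-fold, from 0.0173 to 0.0874. The two-sided exact permutation test gave p = 0.00794, the smallest it allows with 5 against 5, and 0.0397 adjusted over the 5 ratios. Both members were already called in opposite directions in these libraries, so the ratio restates those calls without scaling and is not separate support. Sign flips over the 5 same-numbered pairs gave their smallest exact p, 0.0625. In BoRed-seq the same ratio was 0.0190 and 0.0194 in CTRL and 0.384 and 0.542 in RED, 23.7-fold higher.

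The other ratios moved less. That of miR-196a-5p to miR-196b-5p, given above, was 1.92-fold higher in IP and 6.77-fold higher in RED. miR-10a-5p per miR-10b-5p was 10.5 in INPUT and 14.5 in IP, higher in 5 of 5 pairs (exact permutation p = 0.0952, adjusted 0.159). In replicates 1 to 3 INPUT was at 12.8 to 13.3 and IP at 15.7 to 19.2. In replicates 4 and 5 INPUT was at 7.55 and 7.69 and IP at 11.2 and 11.7. In BoRed-seq this ratio was 9.02 in CTRL and 13.2 in RED without overlap. The strand ratio of miR-10a-5p to miR-10a-3p was 474 in INPUT and 561 in IP (exact permutation p = 0.246, adjusted 0.246), and in BoRed-seq it was 419.6 and 458.8 in CTRL and 397 in RED replicate 2. RED replicate 1 had 0 counts of miR-10a-3p and gives no ratio. miR-615-3p per miR-196a-5p went from 1.11 to 0.427 in m7G-RIP-seq, lower in 5 of 5 pairs (exact permutation p = 0.190, adjusted 0.238). These means span the replicate sets. INPUT was at 3.18, 1.97 and 2.46 in replicates 1 to 3, and 0.340 and 0.319 in 4 and 5. IP was at 0.943, 0.791 and 0.832, then 0.172 and 0.133. In BoRed-seq this ratio went from 0.172 to 0.109.

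**Figure D4:**
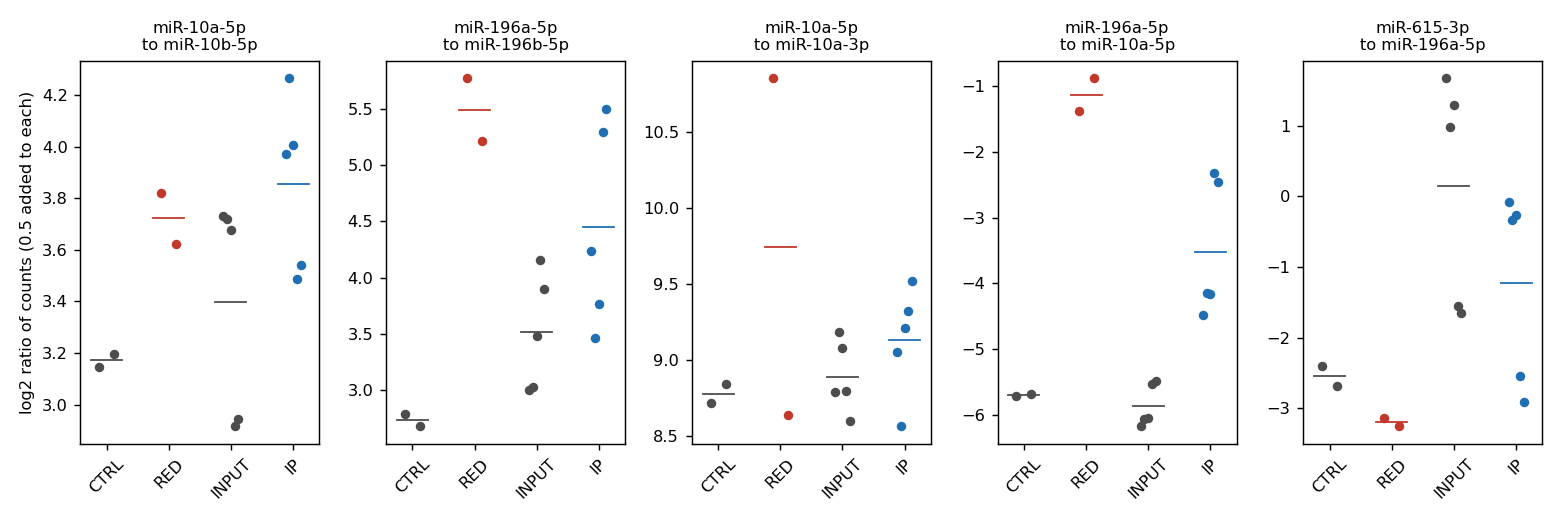
Log2 ratios of the counts of 2 HOX cluster miRNAs (0.5 added to each count) in every library, by group, with a line at each group mean. Each panel has its own y axis, the upper RED point of miR-10a-5p to miR-10a-3p is set by the 0.5 added to a count of 0, and only in the panel of miR-196a-5p to miR-10a-5p are both RED and all IP libraries above their controls by more than the spread of the controls, 5.07-fold in IP and 23.7-fold in RED.

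The seed of miR-196a-5p is also a run of let-7a-5p, shifted by 1 base. It is printed here with the shared run in capitals, positions 2 to 8 in miR-196a-5p and 3 to 9 in let-7a-5p.
miR-196a-5p: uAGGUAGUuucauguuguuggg
let-7a-5p: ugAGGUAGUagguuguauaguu
AGGUAGU, searched on the mature strand, was found in 14 of 2370 mature miRNAs (0.591%). Apart from the miR-196 members these were let-7 family members, miR-98-5p and 4 others. Of those 12, 9 were tested in BoRed-seq, with 7 enriched (32.2% of all miRNAs were) and a median log2 enrichment of 2.10, beside −0.32 over all. In m7G-RIP-seq 10 were tested, with 3 enriched, near the 27.3% of all miRNAs, and a median of 0.18 beside 0.02. In BoRed-seq let-7e-5p, which lacks the run, was enriched too (log2 3.86, DESeq2 adjusted p 2.11e-38), and miR-196b-5p, which holds it, was not called. The list of holders was formed with earlier results on let-7 known and is a description only.

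The miRNAs whose m7G-RIP-seq levels ran most like those of a member were taken from 312 miRNAs with a mean of at least 100 normalized counts, by Pearson's r of log2 normalized counts over the 10 libraries. These libraries share groups and replicate sets, so r describes them and was not tested. miR-196a-5p ran closest to miR-432-5p (0.989), miR-182-5p (0.980) and miR-375 (0.972). miR-10a-5p ran closest to let-7e-3p (0.956), miR-378g (0.932) and miR-1307-3p (0.930), and miR-615-3p to miR-1247-3p (0.922), miR-3615 (0.908) and miR-1269b (0.893).

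**Figure D5:**
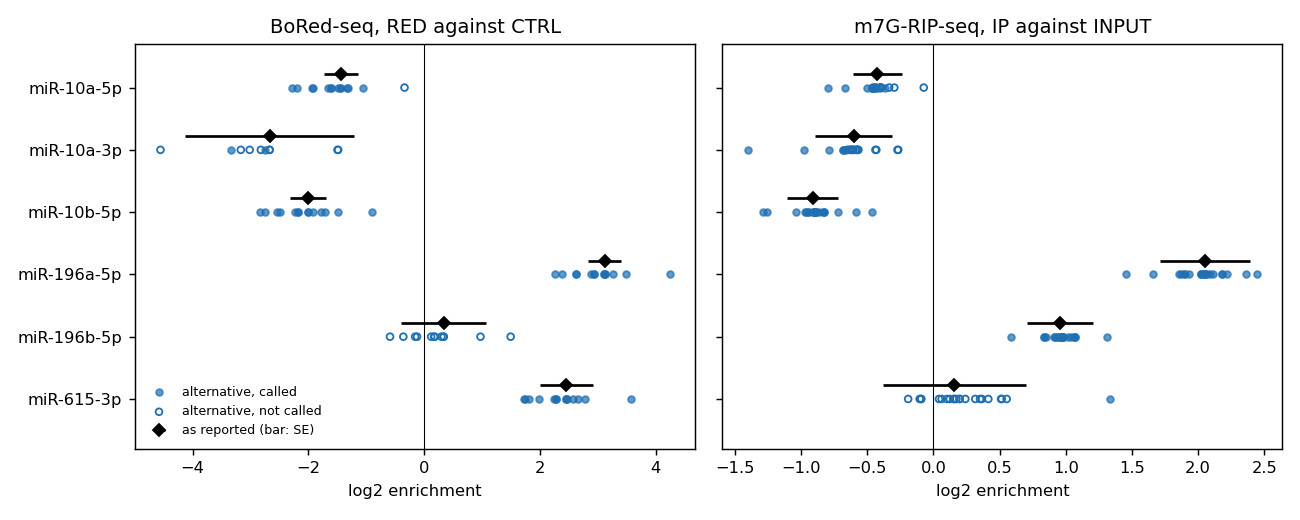
Log2 enrichment of 6 HOX cluster miRNAs as reported (diamonds, bars are SE) and under each alternative fit (circles, filled where the adjusted p was under 0.05), for BoRed-seq (left) and m7G-RIP-seq (right). miR-196a-5p stays above 0 and miR-10b-5p below 0 in all of them, while miR-615-3p in m7G-RIP-seq and miR-196b-5p in BoRed-seq lie on both sides of 0. The fit with miR-10a-5p and miR-10b-5p summed is drawn in the rows of both.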

How the data were processed

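Small RNA libraries were single-end and stranded. The authors trimmed adaptors with Trimmomatic, aligned reads to GRCh38 (hg38), allowing reads with several loci, and counted them over miRBase mature miRNAs with featureCounts. The methods name STAR as aligner, while the submitters' processing notes name Bowtie2. The deposited values are raw counts, neither normalized by the authors nor pooled.

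From these counts, enrichment was tested with the DESeq2 1.42.0 Wald test in R 4.3.3, as in the study's methods, with 1 fit per assay, no covariate, median-of-ratios size factors and unshrunken log2 values. miRNAs needed 10 counts in at least 2 (BoRed-seq) or 5 (m7G-RIP-seq) libraries. Such size factors hold the typical miRNA at no change, and enrichments are relative to it. Alternatives included edgeR 4.0.16. Ratios used a pseudocount of 0.5 and exact tests in Python 3.11.15 with scipy 1.17.1. The tests were checked on simulated data.

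All 8 members were named, with fixed lists of relatives, other HOX rows, holders of a shared run and the 3 most alike miRNAs for 3 members. Members and lists were chosen with earlier results of these data known. Replicates of a group differed by more than sampling noise, with a chi-square of 10.4 to 56.5 (BoRed-seq) or 25.8 to 1382 (m7G-RIP-seq) for each degree of freedom. Same-numbered INPUT and IP libraries deviated together from their group means (r = 0.179, 0.152, 0.146, 0.310 and 0.387), and the numbers were taken to pair them. INPUT replicate 2 correlated more with IP replicate 1 (0.171), and INPUT replicate 4 with IP replicate 5 (0.373). The pairing is therefore uncertain.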

Additional observations from a re-analysis of the deposited data

Results flagged for a closer look

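The enrichment of 3 members differed between m7G-RIP-seq replicates 1 to 3 and 4 to 5 by the DESeq2 interaction test, beside 26.8% of 488 miRNAs. In log2 units, replicates 4 and 5 minus 1 to 3, the difference was −1.08 for miR-10a-3p, 1.05 for miR-196a-5p and 1.50 for miR-615-3p. The enrichment of 4 members differed between the assays by the z test, beside 38% of 384 miRNAs. In log2 units, BoRed-seq minus m7G-RIP-seq, the difference was −1.01 for miR-10a-5p, −1.10 for miR-10b-5p, 1.07 for miR-196a-5p and 2.30 for miR-615-3p. Protocol, controls and depth all differ between the assays and cannot be told apart here. In 14 groups of 5 INPUT or IP libraries, no member had a library that stood alone beyond Dixon's limit.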

How the results depend on the processing

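miR-196a-5p, miR-10b-5p and miR-615-3p in BoRed-seq were called in 14 of 14 alternatives, with log2 ranges of 2.25 to 4.24, −2.83 to −0.90 and 1.73 to 3.57. In m7G-RIP-seq miR-196a-5p, miR-196b-5p and miR-10b-5p were called in 22 of 22, with log2 ranges of 1.45 to 2.44, 0.59 to 1.31 and −1.29 to −0.59. The fit with miR-10a-5p and miR-10b-5p summed counts as an alternative of both, and its −0.46 in m7G-RIP-seq is left out of that range. miR-10a-5p was called in 13 of 14 and 12 of 22. The depleted members fell from 2 to 1 with library totals, where 46 of 391 miRNAs (BoRed-seq) and 164 of 670 (m7G-RIP-seq) were depleted. In m7G-RIP-seq they also fell with TMM factors (200 of 670), no filter (235 of 1137) and edgeR (180 of 670). With a library left out they were 1 to 3 (2 throughout in BoRed-seq). With miR-10a-3p called they were 3 in BoRed-seq with edgeR or totals without miR-21-5p, where 167 of 453 miRNAs were depleted in each. In m7G-RIP-seq they were 3 with totals without miR-21-5p (241 of 670) and the replicate block (237 of 670). They were also 3 with the replicate-set term (234 of 669) and in replicates 4 and 5 alone (243 of 772). Members differing between assays went from 4 to 2 with the interaction term, library totals or replicates 4 and 5 alone. Over all miRNAs these called 145 of 426, 172 of 377 and 178 of 390, beside 146 of 384 as reported. Members differing between replicate sets went from 3 to 5 with library totals, where the share over all miRNAs is not given. The cause of these changes was not tested. Values that changed sign were all uncalled. They were miR-196b-5p in BoRed-seq (−0.36 with totals without miR-21-5p, −0.16 without a filter, −0.59 to 0.97 with a library left out, where −0.12 was without CTRL replicate 2), its assay difference (0.18 with totals), miR-10b-3p in IP (−0.044 to 0.82 with a library left out, below 0 without IP replicate 4), and miR-615-3p in IP (−0.19 with totals without miR-21-5p, −0.094 to 0.41 with a library left out, below 0 without INPUT replicate 4 or 5, −0.10 in replicates 1 to 3). The log2 ratio of miR-10a-5p to miR-10a-3p was −0.077 in replicates 1 to 3 and 0.72 in 4 and 5. The log2 ratio of miR-196a-5p to miR-10a-5p ran from 1.82 to 3.11 over 15 alternatives, with 3.11 in replicates 4 and 5. It was called in 12 of the 15 (exact tests, adjusted p 0.0397 to 0.0625). As a replicate block, sign flips of the pairs left that ratio at 2.34 with an exact p of 0.0625, the block changed the call of miR-10a-3p in IP (−0.69), and it changed no other call in that assay. In BoRed-seq the 2 numbers correlated at 0.110 and were not taken as pairs. The block there left 2 members enriched and 2 depleted, beside 119 and 98 of 356 miRNAs tested. miR-10a-3p had no adjusted p there under the block, and neither it nor miR-196b-5p could be fitted with CTRL thinned to the RED depth. RED depth limits both.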

Other observations

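The relatives of miR-10 outside the HOX clusters, the 5p strands of miR-99a, miR-99b, miR-100, miR-125a and miR-125b, were called in both directions. In BoRed-seq 2 of the 5 were enriched and 2 depleted, beside 32.2% and 27.2% of all miRNAs, and in m7G-RIP-seq 3 were enriched and 1 depleted, beside 27.3% and 29.9% (DESeq2 adjusted p under 0.05). miR-99a-5p fell in both assays, by 1.76 ± 0.29 and 1.61 ± 0.25 on the log2 scale (SE). miR-100-5p was depleted in BoRed-seq, at −1.49 ± 0.29 (SE, adjusted p 8.70e-07), and enriched in m7G-RIP-seq, at 0.74 ± 0.26 (SE, adjusted p 0.00916). It shares the run GUAGAUCCGAA with miR-10a-5p, here in capitals, and no other of 2370 mature miRNAs holds that run (0.0844% with both).
miR-10a-5p: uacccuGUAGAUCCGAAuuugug
miR-100-5p: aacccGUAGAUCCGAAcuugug
miR-99b-5p was enriched in both assays, at 0.68 ± 0.30 and 1.43 ± 0.21 (SE), as was miR-125a-5p, at 1.41 ± 0.27 and 0.64 ± 0.28. miR-125b-5p was at −0.56 and −0.72 and passed in neither (adjusted p 0.0662 and 0.0999).

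Other mature miRNAs of the HOX clusters were few. miR-7704, whose hairpin lies within the HOXD1 gene, had 6.92 and 13.01 normalized counts in CTRL and 744.4 and 685.2 in RED, and was enriched by 6.19 ± 0.40 on the log2 scale (SE, adjusted p 1.53e-52). Its INPUT libraries held 149.8 to 161.3 normalized counts and its IP libraries 253.8 to 319.2, and the enrichment was 0.84 ± 0.15 (SE, adjusted p 5.87e-08). miR-615-5p was at 1.33 ± 0.85 in m7G-RIP-seq (SE, adjusted p 0.168), and miR-196a-3p had 0 to 4 counts in any library.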
